A study of Mus musculus with 6 samples.

Results

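The 10 genes described here belong to the Notch pathway: the receptors Notch1, Notch2 and Notch3, the ligands Dll1, Dll4, Jag1 and Jag2, the transcriptional targets Hes1 and Hey1, and Atoh1, the fate gene that Hes1 represses. They were chosen by symbol, and all 10 were matched to a row of the normalized count table, which holds 55416 Ensembl genes. Crypts from the duodenum and jejunum of 3 C57BL/6 mice labelled as wild type were grown as organoids for 5 days with low density lipoprotein (LDL, 50 μg/ml) or with PBS as the control. Each mouse gave 1 library per treatment, which makes 3 LDL-treated and 3 PBS-treated libraries from 3 mice. The libraries held 22061545 to 31073360 reads on genes. Genes with at least 1 read numbered 35781 and 32751 in the LDL-treated libraries of mice 1 and 3, against 29285 to 30018 in the others. The part of this difference in the results was not tested. The 18S ribosomal gene Rn18s-rs5 took 7.62% of the reads of LDL-treated mouse 1 and 3.02% of those of PBS-treated mouse 2, against 0.0826% to 0.225% in the others, and its part in the results was not tested.

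Notch signaling passes between neighboring cells. A Delta-like or Jagged ligand on one cell binds a Notch receptor on the next, gamma-secretase releases the intracellular part of the receptor, and this fragment joins RBPJ on DNA to switch on Hes and Hey genes. In the intestinal crypt, Hes1 represses Atoh1, so that cells with Notch signaling stay stem cells or become absorptive enterocytes, and cells that escape it switch on Atoh1 and become goblet, Paneth, enteroendocrine or tuft cells. Notch1 and Notch2 are the receptors of crypt stem cells, Dll1 and Dll4 are the ligands presented by secretory cells, and Notch3 is best known from the smooth muscle cells of blood vessels.

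RBPJ is known to act at the Hes1 promoter. The sequences just before the start of Hes1, Atoh1, Notch2 and Jag2 are shown because the first is the classical readout of the pathway, the second is its fate target, and the remaining pair had the smallest adjusted p-values among the members with the mouse as a block. Each line gives the last 150 bases before the start of the Ensembl canonical transcript (GENCODE M39, GRCm39), 5′ to 3′ on the strand of the gene, and capitals mark the RBPJ core TGGGAA on either strand. Hes1 lies at chr16:29883977-29884126 (plus strand), Atoh1 at chr6:64705959-64706108 (plus strand), Notch2 at chr3:97920650-97920799 (plus strand) and Jag2 at chr12:112893438-112893587 (minus strand).
Hes1: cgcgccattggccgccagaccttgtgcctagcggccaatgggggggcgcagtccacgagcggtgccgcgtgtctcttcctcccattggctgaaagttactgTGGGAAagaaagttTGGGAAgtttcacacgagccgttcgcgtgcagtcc
Atoh1: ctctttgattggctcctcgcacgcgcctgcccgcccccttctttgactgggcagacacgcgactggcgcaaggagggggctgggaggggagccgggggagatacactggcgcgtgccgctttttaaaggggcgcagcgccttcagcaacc
Notch2: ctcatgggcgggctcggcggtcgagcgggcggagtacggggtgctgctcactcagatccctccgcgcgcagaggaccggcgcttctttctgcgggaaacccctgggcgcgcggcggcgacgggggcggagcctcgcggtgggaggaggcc
Jag2: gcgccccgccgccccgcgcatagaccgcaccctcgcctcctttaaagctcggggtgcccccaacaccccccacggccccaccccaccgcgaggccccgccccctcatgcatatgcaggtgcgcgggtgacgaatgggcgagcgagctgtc
The Hes1 window held 2 copies of the core on the strand of the gene, from 49 to 44 and from 35 to 30 bases before the start. In windows of 250 bases, 21.7% of 12995 protein-coding genes tested held at least 1 copy on either strand and 2.89% held 2 or more. Among the other members only Hey1 held the core in 250 bases, 1 copy on the opposite strand. The N box CACNAG, a sequence to which Hes proteins can bind, occurred 3 times in the 250 bases before Hes1 and in 36.1% of all windows. A match is a description of the letters and not of binding.

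Over the 6 libraries Hes1 was the most abundant member. Levels were compared between genes as normalized counts per kilobase of annotated exon, which sets genes of different length on 1 scale. Averaged over the 6 libraries this level was 368 for Hes1, above that of 85.0% of the genes with a level in this comparison. Jag1 (165), Dll1 (162), Atoh1 (145), Notch2 (142) and Notch1 (126) followed, and their ranges over the libraries overlapped, from 96.0 to 223 in all, so their order is not firm. Dll4 stood at 52.1, Jag2 at 20.0 and Notch3 at 6.07, above only 8.74% of the genes, and the range of Dll4 lay above those of Jag2 and Notch3. The lowest Jag2 value (10.3) and the highest Notch3 value (10.4) met. Hey1 was at the limit of detection, with 0 reads in each PBS-treated library and 2, 1 and 1 reads in the LDL-treated libraries of mice 1, 2 and 3. A count of 0 allows up to 3 reads, so all 6 values of Hey1 lie within this floor and no fold was computed.

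LDL- and PBS-treated organoids were compared on log2 values for the 18459 genes that averaged 10 or more normalized counts, and 9 of the 10 members were among them. The moderated test of limma took the treatments as independent groups, although each mouse gave both an LDL-treated and a PBS-treated library. The fit with the mouse as a block uses this pairing. Calls needed both a Benjamini-Hochberg adjusted p-value below 0.05 and a fold beyond 1.5 in either direction. None of the 9 members was called, against 0.878% of all genes called higher and 0.395% called lower. Unadjusted p-values from limma were under 0.05 for 4 members (Notch1, Notch2, Jag1 and Jag2). The share of all genes under this unadjusted threshold was not counted. Such counts, here and below, stand without a background and are no result about a list. When the mouse was added as a block, 1 member, Jag2, was called higher (background 5.68%) and none was called lower (background 3.46%). DESeq2 on the recovered reads also called Jag2 alone, without the block (background 4.58%) and with it (background 5.33%). When the LDL-treated library of mouse 2 was omitted, 3 members (Notch3, Jag1 and Jag2) were called higher, against 6.39% of all genes, and none was called lower, against 6.14%. No member was called when any other single library was omitted. The p-values measure the spread between libraries of 3 mice.

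**Figure D1:**
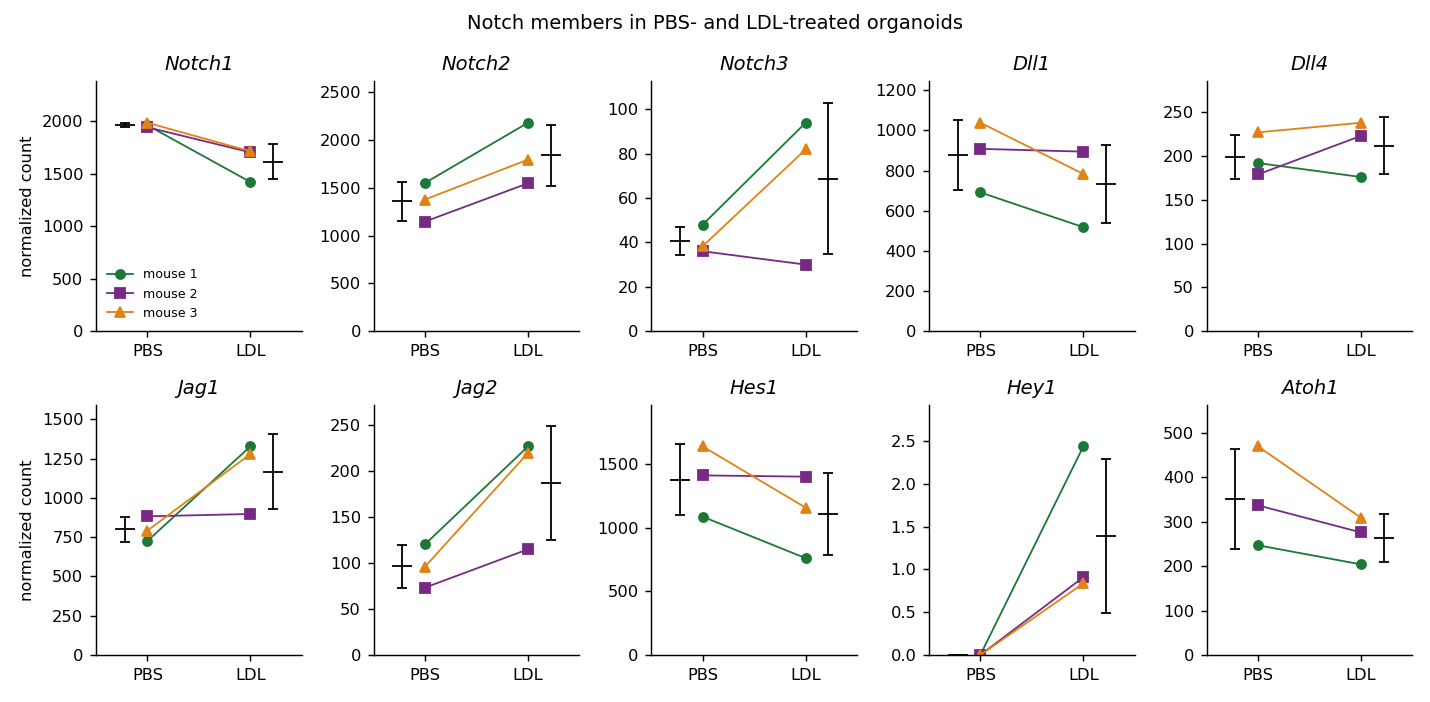
Normalized counts (y axis, from 0) of the 10 members in PBS- and LDL-treated organoids. Points are libraries, lines join the 2 libraries of a mouse, and black marks give the mean ± SD of 3 libraries. Notch2 and Jag2 were higher with LDL in all 3 mice, Notch1 and Atoh1 were lower in all 3, and the Hey1 panel spans 0 to 2 reads per library.

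The receptors Notch1 and Notch2 differed in opposite directions in each mouse. Notch1 (chromosome 2, 26347915 to 26406675) had normalized counts of 1961, 1942 and 1985 in the PBS-treated libraries of mice 1, 2 and 3 and of 1421, 1703 and 1713 in the LDL-treated libraries. All LDL-treated values lay below all PBS-treated values, a pattern found in 12.3% of the genes tested. The PBS-treated values were tight, at 1963 ± 21.4 (SD, n = 3), against 1613 ± 166 (SD, n = 3) with LDL. The log2 change was -0.29 with a standard error of 0.10 (adjusted p = 0.166 from limma, and 0.0562 with the mouse block). Its interval of 95% ran from -0.52 to -0.06, which leaves out a fall of more than 1.5-fold. The exons of Notch1 share 1996 bases with the lncRNA 0610009E02Rik, which had 8 to 18 reads per library.

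Notch2 (chromosome 3, 97920800 to 98057677) had 1553, 1148 and 1379 normalized counts with PBS and 2183, 1549 and 1797 with LDL. Each mouse was higher with LDL, by 1.41-fold, 1.35-fold and 1.3-fold, which was the narrowest spread between mice among the members tested, with an SD of 0.055 log2. The groups overlapped only in that LDL-treated mouse 2 stood just below PBS-treated mouse 1. The log2 change of 0.43 was not called without the block (adjusted p = 0.182 from limma). With the block the adjusted p-value from limma was 0.00795, and Notch2 was not called because the change was under 1.5-fold. With no limit on the fold, 2 members passed on the higher side with the block, Notch2 and Jag2 (background 8.27%), and 2 with DESeq2 without the block, Jag1 and Jag2 (background 5.5%).

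Notch3 (chromosome 17, 32339794 to 32385893) was rare, with 29 to 98 reads per library. It had normalized counts of 48.0, 36.0 and 38.3 with PBS and of 93.9, 30.0 and 81.9 with LDL. Mice 1 and 3 were higher with LDL by 1.96-fold and 2.14-fold and mouse 2 was lower, and the log2 change of 0.59 had a standard error of 0.42 (adjusted p = 0.488 from limma). With LDL-treated mouse 2 omitted, its log2 change was 1.10 (adjusted p = 0.0197 from limma). It was 0.29 without LDL-treated mouse 1 and 0.39 without LDL-treated mouse 3 (adjusted p = 0.809 and 0.776 from limma). The summed normalized count of 8 mural and smooth muscle markers ranged from 79.8 to 136 with PBS and from 62.7 to 156 with LDL, with 2 of the 8 at 0 in some library, and its part in the values of Notch3 was not tested. In bulk RNA, fewer cells of a type and less RNA per cell cannot be told apart.

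Notch4, a receptor that is mainly endothelial and no member of the group, had normalized counts of 73.5, 52.2 and 64.3 with PBS and 67.1, 49.1 and 83.6 with LDL, with overlapping groups and a log2 change of 0.05. Of 10 endothelial markers, 4 reached the mean of 10 (Notch4 among them) and 5 were at 0 in some library, and Cdh5, which defines the cell type, had a normalized count of 0 in PBS-treated mice 2 and 3 and 4.88 at most. The 8 epithelial markers summed to between 88060.2 and 91866 normalized counts with PBS and between 98467 and 130543 with LDL. The 8 immune cell markers, 2 of them at 0 in some library, summed to 108 to 123 with PBS and 146 to 231 with LDL, and the 7 fibroblast markers, 5 at 0 in some library, to 112 to 153 with PBS and 71.8 to 116 with LDL. Their part in the members' values was not tested.

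Among the ligands, both Jagged genes had higher values with LDL in each mouse and neither Dll1 nor Dll4 did. Jag1 (chromosome 2, 136923373 to 136958693) had normalized counts of 725, 882 and 791 in PBS-treated and of 1327, 897 and 1278 in LDL-treated organoids of mice 1, 2 and 3. Every LDL-treated value lay above every PBS-treated value, as for 11.9% of the genes tested, but mouse 2 differed by only 1.02-fold where mice 1 and 3 differed by 1.83-fold and 1.62-fold. The log2 change of 0.53 had a standard error of 0.16 (adjusted p = 0.137 from limma, and 0.0528 with the mouse block). DESeq2 without the block gave 0.57 with an adjusted p-value of 0.0382, and with the block the adjusted p-values were 0.00955 from DESeq2 and 0.0409 from edgeR. Jag1 was called in none of these because the change was under 1.5-fold. Omission of LDL-treated mouse 2 gave 0.71 (adjusted p = 0.00526 from limma).

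Jag2 (chromosome 12, 112871421 to 112893437) was the member with the largest difference among those tested. Its normalized counts were 120.5, 73.3 and 96.1 with PBS and 227, 115 and 219.9 with LDL, from 59 to 263 reads per library. All 3 mice were higher with LDL, by 1.88-fold, 1.58-fold and 2.29-fold, and the groups overlapped only because LDL-treated mouse 2 stood below PBS-treated mouse 1. The log2 change of 0.91 had a standard error of 0.30 and was not called (adjusted p = 0.155 from limma). With the mouse block the standard error was 0.16 and Jag2 was called (adjusted p = 0.00833 from limma). It was also called by DESeq2 without the block (adjusted p = 0.0330) and with it (adjusted p = 0.00123), and by edgeR with the block (adjusted p = 0.00557, where 6.34% of all genes were called higher) and not without it (adjusted p = 0.138).

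Dll1 (chromosome 17, 15587276 to 15597134), the ligand of early secretory progenitors, had normalized counts of 691, 908 and 1038 with PBS and of 518, 894 and 783 with LDL. The groups overlapped because the mice differed, and within a mouse LDL gave 0.75, 0.984 and 0.755 times the PBS value. The log2 change was -0.28 with a standard error of 0.23 (adjusted p = 0.549 from limma, and 0.109 with the block). With single libraries left out it ran from -0.44 without PBS-treated mouse 1 to -0.05 without LDL-treated mouse 1. Dll1 shares 1369 exon bases with Fam120b on the other strand, which had a log2 change of -0.03. The strand setting of the counting is not given in the sources used here.

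Dll4 (chromosome 2, 119156170 to 119166443), the other Delta-like ligand of the crypt, had 192, 179 and 227 normalized counts with PBS and 176, 223 and 238 with LDL. The value was lower with LDL in mouse 1 and higher in mice 2 and 3, so that the mice did not share a direction. Its log2 change of 0.09 had a 95% interval from -0.30 to 0.47 (adjusted p = 0.829 from limma), which leaves out a change of more than 1.5-fold either way. Dll4 shares 616 exon bases with the lncRNA Gm14207 on the other strand, which had 26 to 111 reads per library. The log2 change of Gm14207 was -0.37, and its part in the values of Dll4 was not tested. Of the ligands that are no members, Dll3 had a log2 change of 0.26, with a higher value in all 3 mice, and Dner of -0.49, with adjusted p-values of 0.632 and 0.360 from limma. Dlk1 and Dlk2 did not reach the mean of 10, with normalized counts from 0.909 to 12.2 for Dlk1 and from 3.66 to 9.09 for Dlk2.

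**Figure D2:**
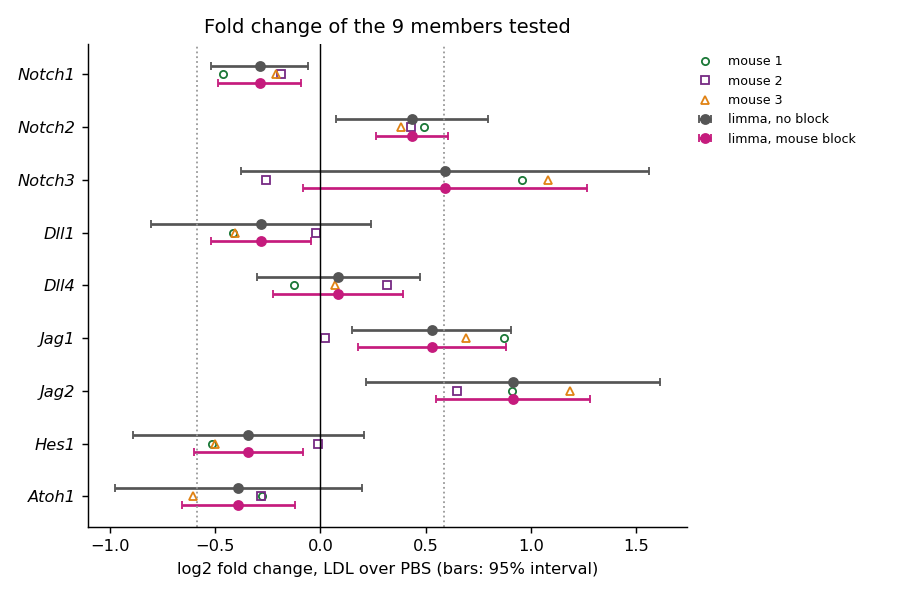
Log2 change, LDL over PBS (x axis), of the 9 members tested. Filled points and bars give limma estimates with their 95% intervals without (grey) and with (magenta) the mouse as a block, open symbols give the difference within each mouse, and dotted lines mark 1.5-fold. The interval of Jag2 with the block runs from 0.55 to 1.28, and mouse 2 lies near 0 for Dll1, Jag1 and Hes1.

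Hes1 and Atoh1 had lower means with LDL, and neither was called. Hes1 (chromosome 16, 29882134 to 29886643), the repressor with the paired cores shown above, had normalized counts of 1087, 1412 and 1639.7 with PBS and of 761, 1402 and 1158 with LDL. Mice 1 and 3 stood at 0.70 and 0.706 times the PBS value and mouse 2 at 0.993 times, and the groups overlapped. The log2 change was -0.34 with a standard error of 0.24 (adjusted p = 0.481 from limma, and 0.0810 with the block). With single libraries left out it ran from -0.53 without LDL-treated mouse 2 to -0.09 without LDL-treated mouse 1. Atoh1 (chromosome 6, 64706109 to 64708229), the factor that commits cells to the secretory lineage, had 247, 337 and 469.8 normalized counts with PBS and 204, 276 and 309 with LDL. All 3 mice were lower with LDL, at 0.825, 0.821 and 0.657 times the PBS value, while the groups overlapped. Its log2 change was -0.39 with a standard error of 0.25 (adjusted p = 0.448 from limma, and 0.0604 with the block). With single libraries left out it ran from -0.617 without PBS-treated mouse 1 to -0.155 without PBS-treated mouse 3.

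The direction was shared by all 3 mice for 7 of the 9 members tested, and for 51.1% of all genes tested. Notch2, Jag1 and Jag2 were higher in all 3, and Notch1, Dll1, Hes1 and Atoh1 were lower in all 3. Over all genes tested, 24.2% were higher in all 3 mice and 26.8% were lower in all 3. In mouse 2 the differences of Dll1, Jag1 and Hes1 were each 0.023 log2 or less in size. The LDL-treated library of mouse 2 had 29870 genes with reads, against 35781 and 32751 in those of mice 1 and 3. The part of this in the differences was not tested.

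Ratios between members within a library do not depend on how the libraries were scaled, apart from the pseudocount of 1. For Hes1 to Atoh1, the log2 ratio was 2.13, 2.06 and 1.80 with PBS and 1.90, 2.34 and 1.91 with LDL, which overlapped, with a lower ratio in mouse 1 and a higher one in mice 2 and 3. The mean difference was 0.05 (exact permutation test, two-sided, p = 0.8; adjusted over 4 ratios, 0.8). For Notch1 to Notch2, the log2 ratio was 0.34, 0.76 and 0.53 with PBS and -0.62, 0.14 and -0.07 with LDL. The groups did not overlap, and the differences within mice were -0.96, -0.62 and -0.59. The mean difference of -0.72 gave p = 0.1 in the exact permutation test (two-sided, adjusted over 4 ratios 0.267), the smallest value that 3 samples against 3 allow.

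For Dll1 to Dll4, the log2 ratio was lower with LDL in each mouse, with a mean difference of -0.37, and for Jag1 to Jag2 it was -0.39 (exact permutation test, two-sided, p = 0.2 for both; adjusted over 4 ratios, 0.267). The groups overlapped in both. With single libraries left out, the Jag1 to Jag2 difference ran from -0.625 without PBS-treated mouse 1 to -0.129 without PBS-treated mouse 2. Shares of the summed level per kilobase of exon were added after the values had been seen and are given without a test. Notch2 made up 47.7%, 41.1% and 44.8% of the level of the 4 Notch receptors with PBS and 62.2%, 51.7% and 53.5% with LDL. The Jagged genes made up 41.2%, 40.2% and 34.8% of the level of 5 ligands (Jag1, Jag2, Dll1, Dll3 and Dll4) with PBS and 61.4%, 40.3% and 52.0% with LDL, with almost the same share in both libraries of mouse 2.

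**Figure D3:**
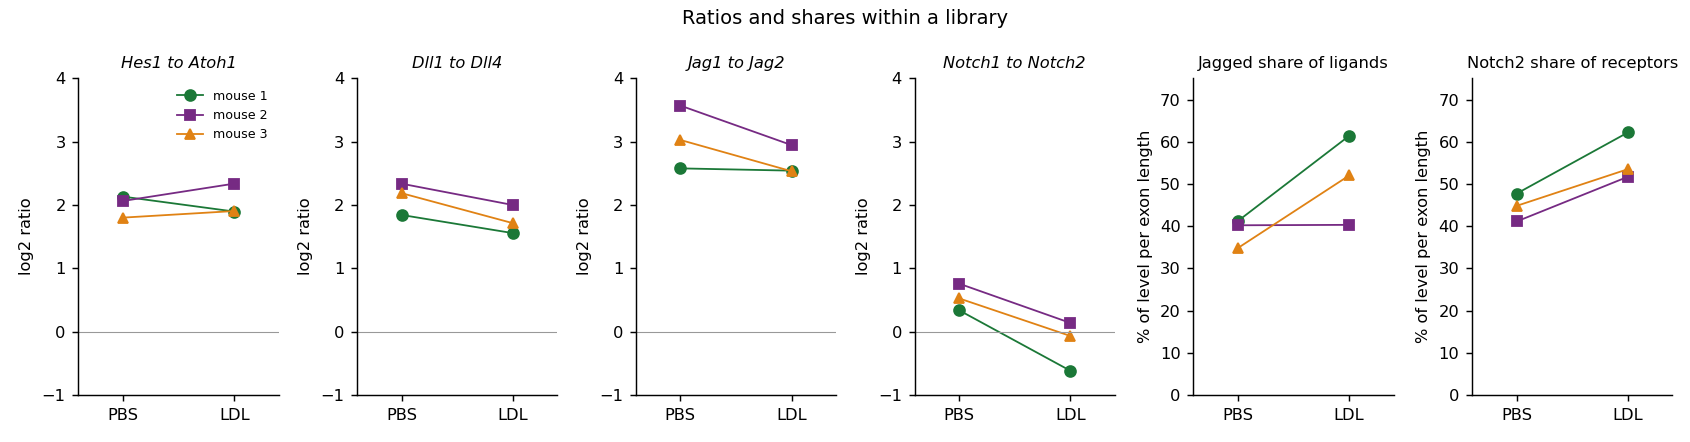
Log2 ratios of 4 pairs of members (first 4 panels) and shares of the level per exon length in percent (last 2 panels) in PBS- and LDL-treated organoids, with lines joining the 2 libraries of a mouse. The ratio of Notch1 to Notch2 was lower with LDL in each mouse, and that of Hes1 to Atoh1 did not share a direction.

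The genes with the most similar pattern to Hes1 and Atoh1 were found from centered log2 values over the 6 libraries, as a description, among 11911 other genes with a mean of at least 100. Dll1 was the closest of all to Hes1, with a root-mean-square difference of 0.044 log2, while Hes1 itself spanned 1.11 log2. Mus81 (0.052) and Ndufb8 (0.069) followed. The closest to Atoh1 were Zbtb12 (0.097), Mfsd12 (0.109) and Neurog3 (0.112), the last being the factor of enteroendocrine progenitors. Hes1 ranked 37th by this measure (0.179), and Atoh1 ranked 694th among the genes closest to Hes1, at the same distance. These 6 libraries share mice and treatments, so the points are not independent.

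Around the members, 69 genes of the Notch pathway were counted by role, 61 of which were tested. None was called in either direction without the block, and the median log2 change was -0.01 against -0.02 for all genes tested. An unadjusted p-value under 0.05 from limma was found for 9 of the 61, with no share over all genes to set beside it. With the block, limma called 1 of the 61 higher, Jag2, and 1 lower, Olfm4, against 5.68% and 3.46% of all genes. The 10 genes that cleave ligands and receptors had a median of 0.05, the 10 of glycosylation and ligand endocytosis -0.12, the 17 of the nuclear complex and its corepressors -0.04, and the 10 inhibitors tested 0.01. Maml2, of the nuclear complex, had the largest rise of the pathway genes tested, a log2 change of 1.28 (adjusted p = 0.301 from limma, and 0.0938 with the block). It stood at 3.15, 0.915 and 5.38 times the PBS value in mice 1, 2 and 3, with 12 to 89 reads per library. DESeq2 and edgeR called it higher with the block (adjusted p = 0.0441 and 0.0302). Rbpj, the DNA-binding partner of the receptor fragment, had a log2 change of -0.07 (adjusted p = 0.753 from limma). Furin and Sox9 had an adjusted p-value below 0.05 with the block and a fold under 1.5 on the higher side, and Psen2 and Mib2 on the lower side, where 7.45% of all genes passed at any fold. These 4 genes and Rbpj were chosen after their values had been seen, as were Maml2, Gfi1, Creb3l4 and Hes6.

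Olfm4, a stem cell marker that responds to Notch, had normalized counts of 9379, 6073 and 16644 with PBS and 2858, 6039 and 4864 with LDL. The LDL-treated values were all below the PBS-treated values, and in mouse 2 the LDL-treated value was 0.994 times the PBS value. Its log2 change was -1.17 (adjusted p = 0.156 from limma, and 0.0386 with the block). DESeq2 with the block did not call it (adjusted p = 0.156), and edgeR with the block did (adjusted p = 0.0353). Of the 12 transcripts counted as induced by Notch, 6 were tested, with a median of -0.29. The remaining 6 (Hes5, Hes7, Hey1, Hey2, Heyl and Dtx1) had means under 10, so that among Hes and Hey genes only Hes1 and Hes6 could be compared in this list.

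**Figure D4:**
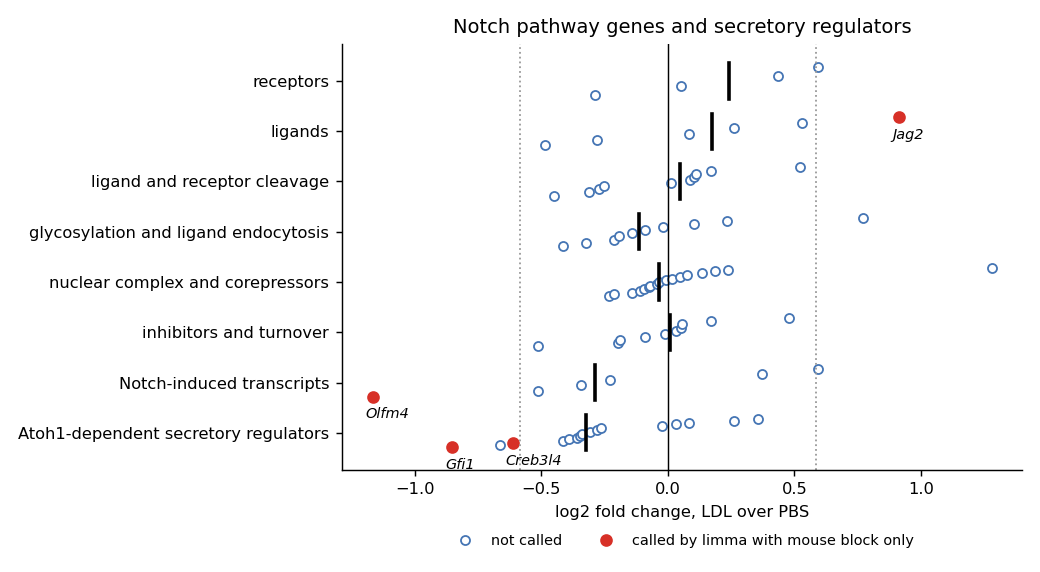
Log2 change, LDL over PBS (x axis), of tested Notch pathway genes by role and of secretory regulators that depend on Atoh1. Each circle is a gene, black bars are medians, dotted lines mark 1.5-fold, and red circles were called by limma only when the mouse was a block: Jag2, Olfm4, Gfi1 and Creb3l4. The medians range from -0.32 for the secretory regulators to 0.24 for the receptors.

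Downstream of the fate decision, 16 regulators of the secretory lineage, Atoh1, Dll1, Dll3 and Dll4 included, had a median log2 change of -0.32, and 9 of them were lower in all 3 mice. None was called without the block (3 had an unadjusted p-value under 0.05 from limma), and Gfi1 and Creb3l4 were called lower by limma with it (adjusted p = 0.0264 and 0.0456). DESeq2 with the block called neither (adjusted p = 0.0994 and 0.0757), and edgeR with the block called both (adjusted p = 0.0234 and 0.0418). Xbp1, the most abundant of them and a factor of secretory cells, had a log2 change of -0.41 (adjusted p = 0.163 from limma, and 0.0192 with the block). Over 56 genes of this list and of 4 lists of cell type markers, 3 were called higher and 3 lower, against 0.878% and 0.395% of all genes, and with the block 7 were higher and 16 lower, against 5.68% and 3.46%. These counts turned on single libraries. They were 6 higher and 12 lower without LDL-treated mouse 2, 0 and 0 without LDL-treated mouse 3, 1 and 0 without PBS-treated mouse 1 or PBS-treated mouse 3, and 2 and 1 without PBS-treated mouse 2, with 2 of each without LDL-treated mouse 1. Calls over all genes tested moved as well, from 162 higher and 73 lower to 1179 and 1133 without LDL-treated mouse 2, 18 and 2 without LDL-treated mouse 3, 27 and 3 without PBS-treated mouse 1, 39 and 7 without PBS-treated mouse 3, 55 and 9 without PBS-treated mouse 2, and 100 and 44 without LDL-treated mouse 1.

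The goblet cell list, which includes Atoh1, held 4 of the 6 called genes. Its median log2 change was -0.74, with 2 of its 10 genes higher and 8 lower in mean, 1 and 7 of them in all 3 mice. With the block limma called 1 of them higher and 6 lower, against 5.68% and 3.46% of all genes. Spink4, Agr2 and Fcgbp, products of goblet cells, fell with log2 changes of -0.995, -0.75 and -0.86 (adjusted p = 0.0164, 0.0208 and 0.0437 from limma), and each was lower in all 3 mice. Clca1, a secreted goblet cell protein, rose from 67.4, 50.9 and 74.9 to 673, 186 and 737 normalized counts, a log2 change of 2.81 (adjusted p = 0.0413 from limma). The other called genes were those of the enterocyte list, Alpi and Fabp1, which rose with log2 changes of 2.13 and 2.74 (adjusted p = 0.00828 and 0.0285 from limma). The enterocyte list did not share a direction, with 6 of its 12 genes higher and 6 lower in mean, 5 and 5 of them in all 3 mice, and a median of -0.08. With the block 5 were called higher and 1 lower, Lct, the brush border lactase, with a log2 change of -1.80 (adjusted p = 0.227 from limma, and 0.00092 with the block). Lct was chosen after its values had been seen. Without the block limma called no gene in the lists of Paneth cells and enteroendocrine cells, where 6 of 10 and 2 of 10 had an unadjusted p-value under 0.05 from limma. With the block, limma called 1 Paneth marker higher and 5 lower, and 2 enteroendocrine markers lower. DESeq2 without the block called 1 Paneth marker higher and 5 lower and 1 enteroendocrine marker lower, where it called 4.58% of all genes higher and 1.89% lower. Their most abundant markers, Lyz1 and Chgb, had log2 changes of -0.33 and -0.31 (adjusted p = 0.391 and 0.477 from limma).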

How the data were processed

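RNA-Seq was analyzed in 6 libraries, 3 LDL-treated and 3 PBS-treated, of organoids from 3 mice. The labels give both libraries of a replicate number the same animal identifier, and their deviations from the treatment means correlated (r = 0.484, 0.421 and 0.462 over 18459 genes, which are no independent replicates). Per the labels, bcl2fastq 2.20, STAR, featureCounts and DESeq2 were used with GRCm39, and ribosomal RNA was depleted before stranded libraries were made. The authors deposited a signal, the normalized count, in which the reads of a gene were divided by the size factor of its library. Multiplied by that factor, 100% of values were whole within 0.01, and the recovered reads summed to 22061545 to 31073360 per library. Of these, 0.0826% to 7.62% lay on Rn18s-rs5, the most in LDL-treated mouse 1. Names, positions and exon lengths came from GENCODE M39, which held 54749 of 55416 identifiers.

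LDL and PBS were compared with limma 3.58.1 in R 4.3.3 (eBayes with trend, two-sided) on log2(normalized count + 1) on genes averaging 10 or more, adjusted by the Benjamini-Hochberg method over all genes tested. Fold changes on this scale understate those of low genes. The mouse was not a term because the methods state none, and alternatives were the mouse as a replicate block, pseudocounts of 0.5 and 5, no filter or a minimum mean of 50, upper-quartile and TMM scaling, each library or both libraries of mouse 3 left out, any fold change, and DESeq2 1.42.0 and edgeR 4.0.16 on the recovered reads with and without the block. Any fold change with the block or with DESeq2 was added after the data had been seen. Within-library ratios were compared by exact permutation tests (two-sided). The floor of 3 reads covers counting error only. The fits were tested on simulated data. Members and lists were chosen with earlier results of these data known. The named genes were all members, the other receptors and ligands, pathway genes called with or without the block, up to 4 called genes and the most abundant gene of each fate list, and the 3 genes most similar to Hes1 and to Atoh1. One gene and a label that names it are not reported here.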

Additional observations from a re-analysis of the deposited data

How the results depend on the processing

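Of 162 refits of the 9 members tested, 154 kept their direction and their side of the threshold, 7 passed it (Jag2 in 5, Jag1 and Notch3 in 1 each) and 1 reversed, Dll4 without the LDL-treated library of mouse 3 (-0.004, with 0.215 at most without another library). Members called higher, 0 as reported, were 1 with the replicate block, with DESeq2 with and without the block and with edgeR with the block, 2 at any fold change with the replicate block or with DESeq2, and 0 to 3 when single libraries were left out. No alternative called a member lower. Pathway genes called higher, 0 as reported of 61 tested, were 1 with the replicate block (background 5.68%) and with DESeq2 (4.58%). They were 2 with DESeq2 (5.33%) or edgeR (6.34%) with the block, and 4 at any fold change with the block (8.27%). They were 2 at any fold change with DESeq2 (5.5%), and 0 to 5 with single libraries left out (6.39% where they were 5). Pathway genes called lower were 1 with the block in limma (background 3.46%) and in edgeR (588 of 18459 genes). They were 3 at any fold change with the block (7.45%), and 0 to 1 with single libraries left out (6.14% where there was 1). Fate list genes called higher, 3 as reported, were 7 with the replicate block in limma (7 at any fold change), DESeq2 and edgeR, 5 with DESeq2 without it (5 at any fold change), 0 without both libraries of mouse 3, and 0 to 6 with single libraries left out. Those called lower, 3 as reported, were 8 with no filter on the mean, 16 with the replicate block in limma, 19 at any fold change with it, 13 and 14 with DESeq2 and edgeR with the block, 12 with DESeq2 (12 at any fold change), 0 without mouse 3, and 0 to 12 with single libraries left out. The ratio of Hes1 to Atoh1 reversed without LDL-treated mouse 2 (-0.10) and without PBS-treated mouse 3 (-0.05), with 0.122 at most without another library, and the other ratios kept their direction. Notch4 reversed without PBS-treated mouse 2 (-0.08), LDL-treated mouse 3 (-0.13) or both libraries of mouse 3 (-0.11), with 0.252 at most. The exact sign-flip test of the within-mouse differences, the replicate block for the ratios, cannot go below p = 0.25 with 3 mice, and gave 0.75 for Hes1 to Atoh1 and 0.25 for the others. The calls of Spink4, Agr2, Clca1, Fcgbp, Alpi and Fabp1 were each lost without LDL-treated mouse 3, with no change of direction. Those of Spink4, Agr2, Clca1 and Fcgbp were also lost without PBS-treated mouse 1, 2 or 3, and that of Fabp1 without PBS-treated mouse 1 or 3. Clca1 and Fcgbp were lost without LDL-treated mouse 1 as well, and Fcgbp with edgeR without the block (adjusted p = 0.0542). Notch3 rests on 29 to 98 reads per library, and Hey1 could not be compared at this depth. The cause of these differences was not tested.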
